A study of Homo sapiens with 4 samples.

Results

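Long introns are taken here as introns of 10001 to 50000 bp in genes with at least 2 listed introns. Of 142224 introns listed for 15902 genes, with 1 RefSeq transcript per gene, 11584 in 5684 genes met this rule, which uses length and position and no read count. The shortest had 10001 bp, the longest 49985 bp and the median 16705.5 bp. A single long intron was listed for 3006 of the genes, and 414 genes had at least 5. The study measured polyadenylated RNA from the cytoplasm of SUM159 cells, an established human triple-negative breast cancer line. Cells had been given H3B-8800, a spliceosome inhibitor, or its solvent DMSO as vehicle for 12 h, in biological duplicate, so each group had 2 libraries from the 1 line. The question that the long introns address is how inhibition of splicing changed intron-containing and spliced RNA in the cytoplasm where the intron is long.

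An intron is removed in steps that begin when the U1 particle binds its 5′ end and the U2 particle binds a branch point near its 3′ end. SF3B1, the protein that H3B-8800 binds, is part of the U2 particle and helps it hold the branch point. RNA that still has an intron is normally held in the nucleus, and RNA in the cytoplasm with an intron is often degraded when the intron brings in an early stop codon. In a long intron the splice sites lie far apart, and cells can also use hidden splice sites or polyadenylation sites inside it, which gives shorter transcripts that end there.

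At each intron the deposited files allow 2 kinds of read to be counted. Intronic reads lie inside the intron, and spliced reads span it. A long intron is a large target, so its intronic count includes reads from any exon, pseudogene or short RNA annotated within it. GENCODE 29 places no annotated exon inside 5715 of the long introns, an exon on the same strand inside 4991, and one on the opposite strand only inside 878. Within their transcripts 2873 were the first intron, 7836 were internal and 875 were the last. No library had an intronic read in 4003 of them, and none had a spliced read in 3216.

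The junctions of 6 long introns whose intronic-to-spliced ratio rose with H3B-8800 and of 6 where it fell are printed to show the sites that were joined when each intron was removed. Each run has the last 15 bases of the exon before the intron and the first 15 of the exon after it, from the GENCODE 29 transcript sequences on GRCh38. Capitals mark the last 2 bases before the junction and the first base after it. The first 6 lines are the rises, on hg38.
NEK6 intron 6, chr9:124327446-124339570, plus strand: cagcccactccctAGTggggacgccctact
SHTN1 intron 7, chr10:116930003-116940465, minus strand: cagcatcaacaaaAGGtcaaagaattagaa
MAP4K4 intron 12, chr2:101844312-101855976, plus strand: cgacggctagaagAGCaacaaaggagagag
BMS1 intron 13, chr10:42802219-42816598, plus strand: tcttagcagaagaTGAggagctctacggtg
OSBPL8 intron 19, chr12:76358812-76369213, minus strand: catcgtactccaaTGGttagcgtccccaaa
DEK intron 7, chr6:18226243-18236451, minus strand: cagatttgcaaaaAGGtctatgaaaattat
SULT1B1 intron 4, chr4:69734265-69749720, minus strand: gaaaacaattgcaAGAtgatttatctggct
USP10 intron 3, chr16:84745674-84758715, plus strand: ccataaagattgcAGAgttgctggagaatg
CBFB intron 3, chr16:67036756-67066681, plus strand: agagaagcaggcaAGGtatatttgaaggct
PARPBP intron 4, chr12:102153977-102164437, plus strand: cgtgataatgaaaAGGtgcagctgctagca
SETD2 intron 12, chr3:47067119-47083719, minus strand: tggaaagacctaaAGGaggtatatcgaatt
EPS15 intron 9, chr1:51366030-51394380, minus strand: cagcaagcgattcAGCcacagacccctttg

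Among the 6 rises 4 junctions follow an exon that ends in AG, the usual last pair of bases of a human exon, and BMS1 and OSBPL8 follow TG. All 6 falls follow AG. Over the 11560 long introns whose junction sequence was read from the transcript set, the exon before the junction ended in AG in 57.3%. The share was 56.6% of the 493 rises, 66.1% of the 121 falls and 55.9% of the 863 that were tested and not called. These shares are a description, and no test was made of them.

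The data cover the 4 libraries with totals of 58000000 to 64000000 reads, recovered from the deposited RPKM values. Long introns held 192016 and 205245 intronic reads under H3B-8800 against 161520 and 159854 under DMSO, and 418266 and 451311 spliced reads against 480501 and 481728. The 2 libraries of a group differed, with a chi-square per degree of freedom of 2.07 with H3B-8800 and 1.94 with DMSO over the spliced counts, so none was a second copy of another. If both mates of a read pair were counted, sampling noise alone raises these values, so they do not show variation beyond it. The cell line was checked against markers. Spliced reads of 8 mesenchymal genes summed to 6538 and 6343 CPM (counts scaled to equal totals of spliced reads) under H3B-8800 against 7387 and 7325 under DMSO. Most of it came from VIM, with 5075 and 4875 against 6132 and 6053. AXL was also lower with H3B-8800, while FN1, CDH2, CD44 and TGFBI were higher. The groups of CAV1 and ZEB1 overlapped. Spliced reads of 8 luminal epithelial genes summed to 35.3 to 41.7 CPM, most of it from ERBB2. ESR1 and PGR, the hormone receptors a triple-negative line lacks, were at 0 in every library.

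Long introns held more intronic RNA per spliced RNA with H3B-8800. Intronic reads per 100 spliced reads were 45.9 and 45.5 under H3B-8800 against 33.6 and 33.2 under DMSO. Both treated libraries lay above both controls, and the means of 45.7 ± 0.30 and 33.4 ± 0.31 (SD, n = 2 each) differed 1.37-fold. Where no exon is annotated inside, the values were lower, 20.3 and 20.2 against 13.9 and 13.8, and differed 1.46-fold. The exact two-sided permutation p was 0.333 for both, the smallest that 4 libraries in 2 groups allow.

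The rise came from the intronic side. Scaled to the library totals, long introns had 3311 ± 0.15 intronic RPM (reads per 1000000 of the library; SD, n = 2) under H3B-8800 against 2511 ± 18.4 (SD, n = 2) under DMSO, a ratio of 1.32. Their spliced reads were at 7245 ± 47.9 and 7517 ± 13.6 RPM (SD, n = 2 each), a ratio of 0.964.

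A few long introns carry much of the intronic signal. Intron 3 of SLCO5A1, a member of the organic anion transporter family, had 26965 and 29363 intronic reads under H3B-8800 against 16392 and 15324 under DMSO, and at most 2 spliced reads in any library. Intron 2 of CHCHD3, which encodes a protein of the mitochondrial inner membrane, had 14636 and 12022 against 12765 and 14557, so its groups overlap. Intron 1 of BAIAP2L1, an actin-bundling membrane protein, had 5983 and 8240 against 6355 and 4703, and its groups overlap as well. All 3 hold annotated exons: a retained_intron exon of SLCO5A1 and RN7SKP29, a copy of the 7SK small RNA, in SLCO5A1, the processed pseudogene AC008038.1 and MIR3654 in CHCHD3, and the processed pseudogene RPS3AP26 in BAIAP2L1. Reads of a pseudogene or other copy can come from its parent gene, so these counts are uncertain. Without the 3 introns, intronic reads per 100 spliced reads were 34.5 and 34.5 against 26.2 and 26.0, a ratio of 1.32.

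**Figure D1:**
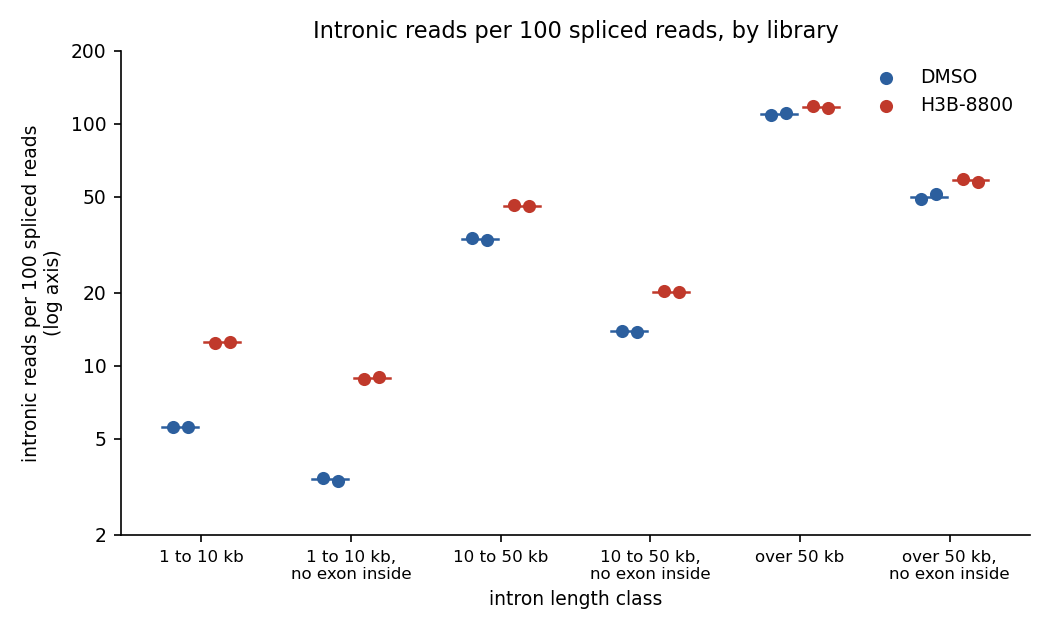
Intronic reads per 100 spliced reads (log axis) summed over introns of 3 length classes, with and without introns that hold an annotated exon; points are the 2 libraries of each group and lines their means. The H3B-8800 points lie above the DMSO points in every class, by 2.24-fold from 1 to 10 kb, 1.37-fold from 10 to 50 kb and 1.07-fold over 50 kb.

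Long introns moved less than shorter ones and more than longer ones. In the 70634 introns over 1000 and up to 10000 bp, called mid-length here, intronic reads per 100 spliced reads were 12.4 and 12.5 under H3B-8800 against 5.59 and 5.56 under DMSO, a 2.24-fold difference. In the 1993 introns over 50000 bp they were 119 and 116 against 108 and 111, a 1.07-fold difference. On the log2 scale the ratio of long introns stood 1.89 and 1.86 above that of mid-length ones with H3B-8800 and 2.59 and 2.58 above it with DMSO. The change of long introns was thus lower by 0.71 than that of mid-length introns, with a spread of 0.023 between replicates, and both treated libraries lay on one side of both controls (exact permutation p = 0.333, the smallest possible). Against the introns over 50000 bp, the change of long introns was higher by 0.36, with a spread of 0.043 (exact permutation p = 0.333).

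The gap to mid-length introns was also found inside the same genes. In 5423 genes that have introns of both classes, the ratio rose 1.40-fold in the long introns and 2.17-fold in the mid-length ones, and the difference of the 2 changes was -0.63 on the log2 scale. Where neither class holds an annotated exon, over 3087 genes, the changes were 1.47-fold and 2.30-fold. In both cases the exact permutation p was 0.333. Of 617 genes with a tested intron of each class, the long introns' median change was the lower in 458, or 74.2%.

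Within the long introns, the rise was largest near the lower length limit. From 10 to 15 kb, intronic reads per 100 spliced reads were 32.9 and 32.8 under H3B-8800 against 20.2 and 20.01 under DMSO, a 1.63-fold difference. From 30 to 50 kb they were 85.5 and 80.8 against 72.8 and 71.6, a 1.15-fold difference. The change of the longest bin was lower by 0.51 on the log2 scale, with a spread of 0.056 between replicates (exact permutation p = 0.333). The order of the 4 bins was not even, since the ratio of groups was 1.24 from 15 to 20 kb and 1.42 from 20 to 30 kb. From 20 to 30 kb, SLCO5A1 intron 3 gave 26965 and 29363 of the 55677 and 59827 intronic reads under H3B-8800. Under DMSO it gave 16392 and 15324 of 45117 and 44323, so the 1.42 leans on this intron. Introns without an annotated exon do not include it. Their ratios in the 4 bins were 1.93, 1.16, 1.39 and 1.04, an uneven order as well. From 30 to 50 kb their treated values of 29.9 and 28.1 lay just above the controls of 27.6 and 27.98.

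The ratio of groups changed little across the length limits. It was 1.93 just below and 1.82 just above the lower limit, and 1.04 and 1.05 at the upper limit. Introns of 9 to 10 kb, just outside, had 30.003 and 30.2 intronic per 100 spliced reads under H3B-8800 against 15.5 and 15.7 under DMSO. Introns of 10 to 11 kb, just inside, had 32.2 and 32.0 against 18.0 and 17.3. At the upper limit, introns of 45 to 50 kb had 215 and 173 against 179 and 194, and introns of 50 to 55 kb had 46.3 and 41.5 against 42.5 and 41.2. The groups overlap in both, and the level was lower above the limit. CHCHD3 intron 2, of 45514 bp, gave 14636 and 12022 of the 19089 and 16952 intronic reads from 45 to 50 kb under H3B-8800. Under DMSO it gave 12765 and 14557 of 17223 and 18955.

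The change of long introns also differed with their place in the gene. In first introns, intronic reads per 100 spliced reads were 30.8 and 31.6 under H3B-8800 against 28.5 and 26.7 under DMSO. In internal introns they were 53.2 and 52.5 against 36.6 and 36.7, and in last introns 44.4 and 44.0 against 29.7 and 29.7. The differences were 1.13-fold, 1.44-fold and 1.49-fold. Without an annotated exon inside, last introns had 20.9 and 20.6 against 10.4 and 10.2, a 2.01-fold difference, and first introns 18.8 and 17.8 against 17.6 and 16.9, a 1.06-fold difference. The change of last introns was higher than that of first introns by 0.93 on the log2 scale, with a spread of 0.045 (exact permutation p = 0.333). These classes were not matched on expression or on length. Among the introns tested one by one below, the median length was 17983.5 bp in first and 15249 bp in last introns.

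**Figure D2:**
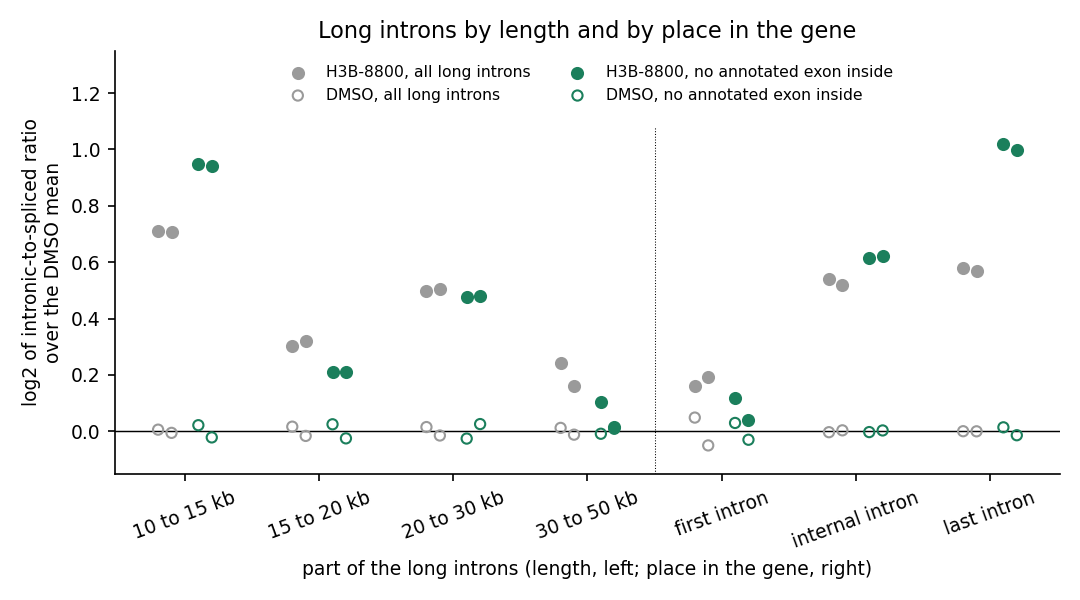
Log2 of the intronic-to-spliced ratio of each library over the DMSO mean, for 4 length bins of the long introns and for first, internal and last ones; filled points are the H3B-8800 libraries, open points the DMSO libraries, grey all long introns and green those with no annotated exon inside. The green treated points reach 0.95 from 10 to 15 kb and 1.01 in last introns on average, and stay near the DMSO points from 30 to 50 kb and in first introns.

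Intron by intron, 1480 long introns of 1215 genes averaged 10 or more reads of both kinds and could be tested, 12.8% of the members. The filter used means over all 4 libraries, so an intron could pass through the intronic reads of 1 group alone. BMS1 intron 13 did so, with 25 and 15 intronic reads under H3B-8800 and 0 and 0 under DMSO. The filter can thus favour introns that changed, rises included, and the same filter was used for all lengths. edgeR's quasi-likelihood test of the interaction between read kind and treatment, adjusted by Benjamini and Hochberg over all 9937 introns of any length, called a higher ratio in 494 long introns and a lower one in 122. Over all lengths 56.5% of the tested introns rose and 2.88% fell, so at 33.4% rises and 8.24% falls the long introns had fewer rises and more falls than the background. Their median log2 change was 0.69, beside 1.62 over all tested introns. Of the mid-length introns, 60.2% rose and 1.67% fell, and of the 293 introns over 50000 bp, 14.7% rose and 12.3% fell, with a median of -0.04. Without H3B-8800 replicate 1 the long introns had 314 rises and 74 falls, and without replicate 2 they had 301 and 64.

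The share of rises went down along the 4 length bins, from 39.2% to 38.1%, 27.5% and 21.1%, and the median change from 1.00 to 0.79, 0.42 and 0.27 on the log2 scale. Of first introns 99 of 386 rose and 36 fell, of internal ones 330 of 927 rose and 80 fell, and of last ones 65 of 167 rose and 6 fell. Where no exon is annotated inside, 145 of 408 rose and 29 fell. Introns with the end of a shorter transcript of their own gene inside, 564 in all, had 195 rises and 59 falls, or 10.5% falls. Falls were 10% of the 410 with an internal exon of their own gene inside. They were 9.44% of the 180 with a same-strand exon of another gene. These sets overlap. An internal exon of their own gene, without a first or last one or another gene's same-strand exon, lay inside 94. Of these, 8.51% fell. Whether the share of falls is particular to transcript ends was not tested.

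**Figure D3:**
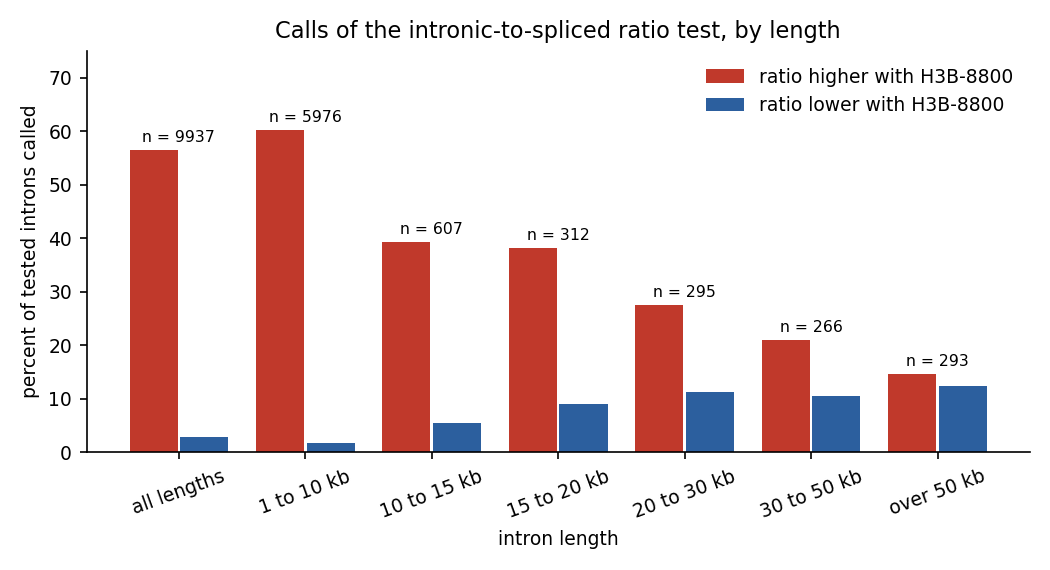
Percent of tested introns with a higher (red) or lower (blue) intronic-to-spliced ratio with H3B-8800, by intron length; n is the number tested. Rises go from 60.2% of introns of 1 to 10 kb to 14.7% of those over 50 kb, and falls from 1.67% to 12.3%.

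The ratio can move through either kind of read. In separate tests of each kind, 380 of the 494 long introns with a higher ratio had more intronic reads, and 72 of these also had fewer spliced reads. Fewer spliced reads without a call of intronic reads were found in 81. Of the 122 long introns with a lower ratio, 91 had fewer intronic reads, and 31 of these also had more spliced reads. More spliced reads without a call of intronic reads were found in 26. All these tests share the same libraries and counts.

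Among the 12 rises with the smallest adjusted p in introns without an annotated exon were 5 in genes of kinases or growth signalling. Intron 6 of NEK6, a mitotic kinase, had 74 and 113 intronic reads under H3B-8800 against 6 and 6 under DMSO, beside 92 and 124 spliced reads against 184 and 190. This made a log2 ratio change of 4.71 (SE 0.44), with an adjusted p of 7.73e-06 by edgeR. Intron 12 of MAP4K4, a kinase upstream of JNK, had 168 and 193 intronic reads against 50 and 32, and its spliced reads, 715 and 704 against 824 and 801, did not pass the test of spliced reads. The groups do not overlap in either intron. Intron 1 of MAP3K7, the TAK1 kinase of inflammatory signalling, went to 63 and 75 intronic reads from 10 and 8, a ratio change of 3.21 (SE 0.48). Intron 1 of GNA11, a G protein alpha subunit, had 29 and 77 against 6 and 2, a ratio change of 4.33 (SE 0.65), and its treated libraries differed more than most. Intron 3 of NPRL3, a part of the GATOR1 complex that restrains mTORC1, had 24 and 39 against 4 and 6.

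Other rises without an annotated exon were in genes of chromatin, lipid transfer, autophagy and ribosome assembly. Intron 7 of BICRA, listed as GLTSCR1 and encoding a subunit of a BRD9-containing chromatin remodeller, had 224 and 251 intronic reads against 4 and 18, with 16 and 9 spliced reads against 15 and 16. Intron 7 of DEK, a chromatin-binding protein, had 82 and 62 against 12 and 10. DEK was one of the introns where spliced reads also rose, with 399 and 368 against 361 and 317, a change of 0.51 on the log2 scale after TMM scaling (SE 0.11). Intron 19 of OSBPL8, a lipid transfer protein at membrane contacts, showed the same with 84 and 100 intronic reads against 2 and 6 and 124 and 138 spliced reads against 87 and 75. Intron 5 of ATG7, an enzyme that starts autophagosome growth, had 364 and 410 intronic reads against 119 and 131 and few spliced reads, 11 and 9 against 21 and 27. Intron 13 of BMS1, a GTPase of small ribosomal subunit assembly, had 25 and 15 intronic reads against 0 and 0. Against a floor of 3 counts over the DMSO group its intronic RPM was at least 14.2-fold higher, and BMS1 has near-identical pseudogene copies, so its counts are uncertain. Intron 7 of SHTN1, which links actin to adhesion proteins in growth cones, had 90 and 112 against 2 and 4, a ratio change of 4.98 (SE 0.63). Intron 3 of SPATS2L had 68 and 70 against 10 and 4. In each of these introns both treated libraries lay above both controls.

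The 4 rises named for the smallest adjusted p with an annotated exon inside included a gene of Wnt signalling, an enzyme of respiration and a kinase. Intron 12 of RYK, a Wnt receptor, had 193 and 217 intronic reads under H3B-8800 against 33 and 22 under DMSO, and its spliced reads were 177 and 188 against 484 and 475. The log2 change of its ratio was 4.29 (SE 0.33), with an adjusted p of 1.69e-06 by edgeR, and the exon inside is a pseudogene on the other strand. Intron 9 of SDHA, the flavoprotein subunit of succinate dehydrogenase, had 263 and 289 intronic reads against 30 and 38. A retained_intron transcript of SDHA covers part of the intron, and near-identical pseudogene copies of SDHA make its counts uncertain. Intron 1 of AKT1, the growth-signalling kinase, had 168 and 157 against 12 and 4, with 148 and 161 spliced reads against 302 and 346. Intron 2 of APTX, a DNA end-repair enzyme, had 514 and 535 against 63 and 64, and the processed pseudogene TCEA1P4 lies inside it.

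**Figure D4:**
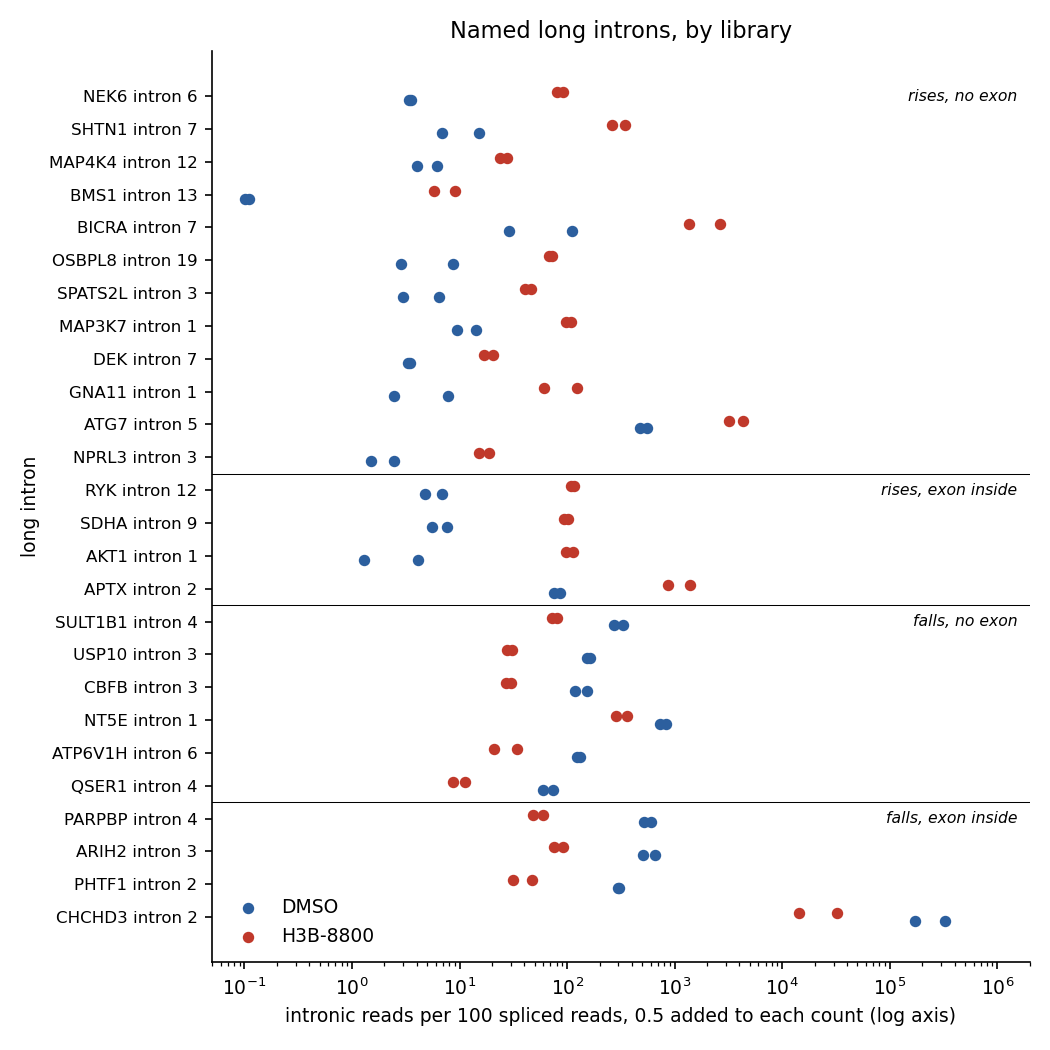
Intronic reads per 100 spliced reads (log axis, 0.5 added to each count) in each library for 26 long introns with the smallest adjusted p in their class; red points are H3B-8800 and blue points DMSO. The 2 colours are apart in every row, as the rule that chose them requires, and BMS1 intron 13 had no intronic read with DMSO.

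The 6 falls with the smallest adjusted p in introns without an annotated exon had more spliced reads. Intron 3 of CBFB, the partner subunit of RUNX proteins, had 50 and 50 intronic reads under H3B-8800 against 108 and 88 under DMSO, and its spliced reads went to 169 and 185 from 71 and 75. The log2 change of its ratio was -2.24 (SE 0.36), with an adjusted p of 0.000302 by edgeR. Intron 3 of USP10, a deubiquitinase, had 43 and 40 intronic reads against 91 and 92 and 141 and 146 spliced reads against 56 and 60. Intron 4 of SULT1B1, a sulfotransferase, had 161 and 152 intronic against 432 and 376, and 201 and 211 spliced against 130 and 139. Intron 1 of NT5E, the CD73 enzyme that makes adenosine, had 912 and 879 against 1472 and 1378, and 252 and 306 spliced reads against 202 and 165. Intron 6 of ATP6V1H, a subunit of the vacuolar proton pump, had 30 and 18 against 50 and 60, and intron 4 of QSER1 had 4 and 6 against 16 and 22. In all 6 the spliced reads of both treated libraries were above both controls, and each also rose in the test of spliced reads. The calls of NT5E, ATP6V1H and QSER1 ended when no filter on low counts was used, at adjusted p values of 0.0569, 0.0932 and 0.138 by edgeR.

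Named falls with an annotated exon inside differed in which kind of read moved. In PARPBP, an inhibitor of recombination repair, intron 4 lost intronic reads, with 112 and 128 against 249 and 218, and gained spliced reads, with 235 and 216 against 41 and 42. In ARIH2, a ubiquitin ligase, intron 3 had 68 and 73 intronic reads against 877 and 823, and its spliced reads were lower, at 90 and 80 against 132 and 163. Intron 2 of PHTF1 had 19 and 40 against 303 and 274, with 62 and 85 spliced reads against 102 and 89, which did not pass the test of spliced reads. A last exon of a shorter transcript of the same gene lies inside each of the 3. Where an annotated transcript runs on into the intron its first bases can be read, and they are GTactg in PARPBP and GTgagc in ARIH2, with the capitals marking the usual GT. In CHCHD3 intron 2 the ratio fell through spliced reads, 45 and 83 against 7 and 4, while intronic reads did not pass the test.

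Other called introns were found in each of 10 gene lists, described here beside the 33.4% rises, 8.24% falls and median change of 0.69 of all tested long introns. Of 16 tested long introns in receptor and kinase signalling genes, 5 rose and 1 fell, with a median of 0.74. In PRKCA, a protein kinase C, intron 13 went to 34 and 38 intronic reads from 0 and 4, and its spliced reads to 48 and 45 from 105 and 78. With no filter on low counts the PRKCA call stood, as did those of HERC2, SETD2 and SMC1A described next, and the calls of all other introns first named for these lists ended, at adjusted p values of 0.0672 to 0.443 by edgeR.

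Chromatin and transcription regulators had 5 rises and 2 falls among 16, with a median of 0.93. In SETD2, which methylates histone H3 at lysine 36, intron 12 had 26 and 12 intronic reads against 98 and 114 and 142 and 146 spliced reads against 97 and 71, a fall of the ratio by 3.28 (SE 0.47). An exon of nonsense-mediated decay transcripts of SETD2 lies inside it. Intron 3 of RUNX1, a transcription factor, rose to 69 and 61 intronic reads from 10 and 17. Intron 9 of MED13, a Mediator subunit, fell to 21 and 26 from 83 and 93, and a last exon of a shorter coding transcript lies inside. The separately annotated AC018628.1 and RN7SL800P also lie inside it on the same strand, so its intronic count is uncertain.

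Genes of the cell surface and matrix gave mixed calls. Actin and adhesion genes had 3 rises and 3 falls among 15, with a median of -0.20. In TNS3, which joins integrins to actin, the rises were in introns 13 and 20, with 34 and 20 intronic reads against 4 and 1 and with 81 and 33 against 14 and 12. Extracellular matrix genes had 3 rises and no fall among 11, with a median of 0.54. These were intron 14 of ADAM10, a membrane protease, with 14 and 32 against 4 and 2, intron 1 of LOXL2, a collagen cross-linking enzyme, with 15 and 17 against 2 and 9, and intron 4 of COL5A1, a fibrillar collagen, with 217 and 217 against 107 and 123. Coding exons of another gene, ENTPD4, lie on the same strand inside the LOXL2 intron, so its intronic reads can include reads of that gene. By edgeR, the adjusted p of TNS3 intron 20 was 0.0707 without H3B-8800 replicate 1, that of ADAM10 was 0.0697 without DMSO replicate 2, and that of LOXL2 was 0.0748 without DMSO replicate 1. That of COL5A1 was 0.0732 without DMSO replicate 2, 0.127 without H3B-8800 replicate 1 and 0.0769 with DESeq2.

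Ubiquitin ligases and deubiquitinases had 4 rises and 2 falls among 11, with a median of -0.15. Intron 10 of UBE3C, a ubiquitin ligase, rose to 65 and 38 intronic reads from 11 and 8. The processed pseudogene RPS27AP12 lies inside it on the same strand, so its count is uncertain. Intron 2 of HERC2, a large ubiquitin ligase with near-identical partial copies elsewhere, fell mainly through spliced reads, 38 and 58 against 5 and 17. DNA replication and repair genes had 2 rises and 3 falls among 10, with a median of 0.55. Intron 36 of ATR, the replication stress kinase, had 60 and 107 intronic reads against 56 and 44 and fewer spliced reads, 25 and 35 against 79 and 69. An exon of the separately annotated AC109992.2 lies inside it on the same strand. Intron 2 of POLD3, a DNA polymerase subunit, fell to 15 and 21 from 82 and 80. Mitosis and chromosome structure genes had 4 rises and 1 fall among 9, with a median of 0.63. Intron 18 of SMC1A, a cohesin subunit, had 28 and 28 against 6 and 3, and intron 28 of CLASP1, a microtubule plus-end protein, had 29 and 25 against 2 and 4. The ratio rose less in intron 1 of MAD1L1, a spindle checkpoint protein, by 1.01 (SE 0.35). The MAD1L1 call ended without DMSO replicate 2, H3B-8800 replicate 1 or H3B-8800 replicate 2, at adjusted p values of 0.106, 0.131 and 0.0789 by edgeR, and with DESeq2 at 0.1198. The CLASP1 call ended without DMSO replicate 1 or H3B-8800 replicate 2, at 0.167 and 0.0651, and the POLD3 call without H3B-8800 replicate 2, at 0.0638.

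Membrane traffic genes had more falls than rises, 5 and 3 among 15, with a median of -0.13. Intron 9 of EPS15, an endocytic adaptor, had 2 and 4 intronic reads against 32 and 30, with 64 and 64 spliced reads against 71 and 84. Intron 27 of ITSN2, an endocytic scaffold, fell to 212 and 249 from 366 and 396. Each holds an annotated last exon of a shorter transcript of its own gene. Intron 3 of RAB10, a vesicle GTPase, rose to 50 and 55 from 5 and 15, and its spliced reads to 630 and 685 from 399 and 433. RNA processing and decay genes had 3 rises and 2 falls among 11, with a median of 0.50. Intron 13 of SRPK1, a kinase of splicing factors, had 19 and 20 against 2 and 6, and the ratio of SRPK1 intron 6 rose with fewer spliced reads, 85 and 81 against 158 and 152, beside 39 and 31 intronic reads against 29 and 14. The ratio fell by 0.70 in intron 17 of DDX10, an RNA helicase. Each library left out ended the DDX10 call, at adjusted p values of 0.0516 to 0.1204 by edgeR, and so did DESeq2 at 0.180. The call of SRPK1 intron 6 ended without DMSO replicate 2 or H3B-8800 replicate 1, at 0.0664 and 0.0747. Translation and protein folding genes had 1 rise among 6 and no fall, with a median of 0.19. The rise was in intron 7 of EIF3E, a translation initiation subunit, with 16 and 34 against 10 and 5. It ended without DMSO replicate 2 or H3B-8800 replicate 2, at adjusted p values of 0.134 and 0.225 by edgeR, and with DESeq2 at 0.0630.

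Some genes had 1 long intron that rose and another that fell. This was seen in 14 of the 55 genes with at least 2 called long introns. These genes, with the introns named next, were chosen after their values were seen. Of the introns named, only NT5E intron 1 and PLOD2 intron 7 hold no annotated exon. The others hold an exon on the same strand, so their intronic reads can include reads of it. Of all called long introns 80.2% were rises, so calls of both directions can meet in a gene without any link between them. Whether 14 of 55 differs from that was not tested, and such genes were not counted over introns of all lengths. In NDUFS4, a subunit of respiratory complex I, intron 2 had 70 and 37 intronic reads under H3B-8800 against 106 and 113 under DMSO, while intron 4, the last, had 68 and 46 against 2 and 6. The log2 ratio changes were -1.004 (SE 0.34) and 3.57 (SE 0.53). In MARK3, a microtubule-affinity kinase, the neighbouring introns 2 and 3 went apart, with 6 and 17 against 30 and 20 in the first of them and 32 and 34 against 2 and 1 in the next. In NT5E intron 3 rose, with 47 and 46 against 14 and 13, beside the fall of intron 1. In PLOD2, a collagen lysyl hydroxylase, intron 1 had 4 and 2 against 22 and 12, and intron 7 had 30 and 20 against 0 and 0, at least 17.8-fold higher against the floor of 3 counts over the DMSO group. In LRRFIP2, neighbouring introns 1 and 2 had 105 and 119 against 446 and 424, and 517 and 524 against 431 and 385. In PTK2, the focal adhesion kinase, intron 2 fell with 33 and 37 against 179 and 171, and in intron 24 the ratio rose with 73 and 77 spliced reads against 178 and 137, beside 25 and 15 intronic reads against 14 and 4. The rise of PTK2 intron 24 ended without H3B-8800 replicate 1, at an adjusted p of 0.0769 by edgeR, and with no filter on low counts, at 0.127.

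**Figure D5:**
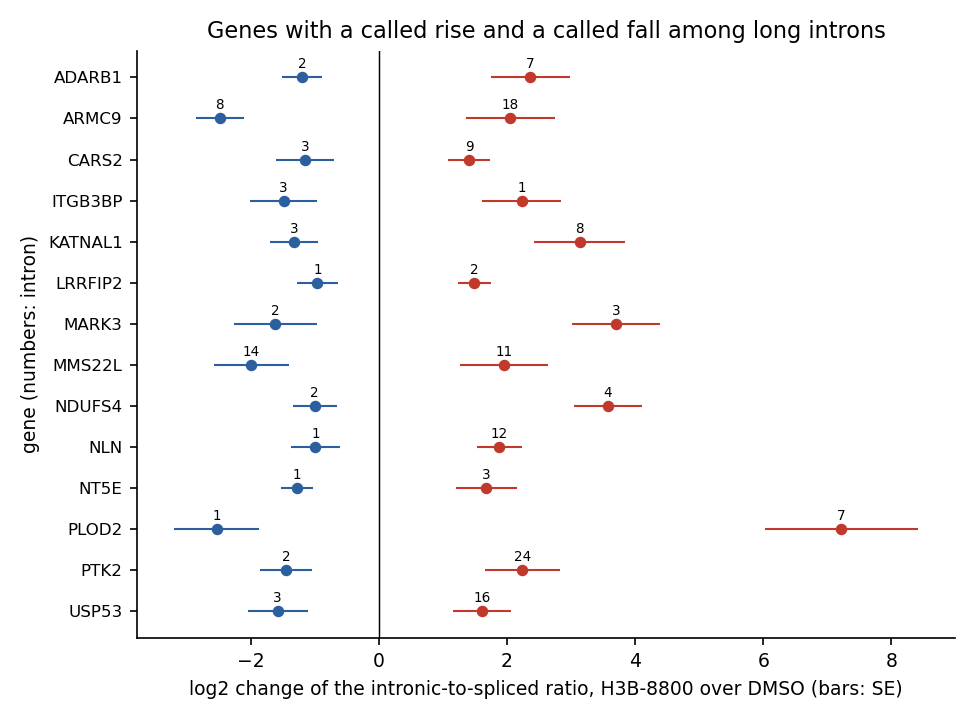
Log2 change of the intronic-to-spliced ratio with its SE for the 14 genes with 1 long intron called higher (red) and another called lower (blue); the number beside a point is the intron's place in the transcript. Falls run from -2.53 in PLOD2 intron 1 to -0.96 in LRRFIP2 intron 1, and rises from 1.41 in CARS2 intron 9 to 7.22 in PLOD2 intron 7.

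Intronic reads alone could be tested in 2026 long introns with a mean of at least 10, and the 2 groups were scaled to the library totals. With edgeR, adjusted by Benjamini and Hochberg over 12013 introns, 654 long introns rose and 229 fell. That is 32.3% and 11.3%, where all lengths gave 48.2% rises and 5.74% falls. The median log2 change was 0.53 beside 1.13 for all. TMM scaling of the intronic reads, which moves the median of all tested introns to 0.09, turned this split round, with 173 rises and 656 falls among the long introns, 20.9% rises of all calls in place of 74.1%. Without H3B-8800 replicate 1 or replicate 2 edgeR called no long intron in either direction, at smallest adjusted p values of 0.0940 and 0.0930. At an unadjusted p under 0.05 there were then 588 and 602 long introns, and DESeq2 called 173 rises and 68 falls without replicate 1 and 173 rises and 82 falls without replicate 2.

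Several long introns could be seen only in this test because few reads span them. The introns named here, chosen after the values were seen, are those with no ratio test among the 6 rises and 6 falls with the smallest adjusted p, beside SLCO5A1. Intron 7 of ANKRD12, a nuclear protein, had 349 and 391 intronic reads under H3B-8800 against 29 and 27 under DMSO, beside 3 or 4 spliced reads per library, and holds no annotated exon. Intron 3 of PDCD1LG2, the checkpoint ligand PD-L2, had 626 and 731 against 130 and 125. Intron 8 of ATRX, a chromatin remodeller, had 1898 and 2038 against 704 and 748. Downward, intron 1 of PAK3, a kinase, had 230 and 266 against 706 and 703 with at most 2 spliced reads. In these 4 introns no library had more than 10 spliced reads, so the intronic reads moved where that junction was scarce. Annotated exons cover 2272 bases of the ATRX intron, same-strand ones included, so its intronic count is uncertain.

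Spliced reads of long introns were tested in 4740, again at a mean of at least 10, with TMM scaling and adjustment over 66136 introns. edgeR called 1185 rises and 632 falls, or 25% and 13.3%, where 21.5% of all tested introns rose and 21.7% fell. The median was 0.20 on the log2 scale beside 0.01 for all. Scaling to the library totals gave 740 rises and 988 falls, so rises were 42.8% of the calls in place of 65.2%, and moved the median of the long introns to -0.04 and of all introns to -0.23. On both scales the long introns' median lay above that of all introns. Without H3B-8800 replicate 1 or replicate 2 edgeR again called none, with smallest adjusted p values of 0.0845 and 0.0828. There were 1543 and 1520 long introns at an unadjusted p under 0.05, and DESeq2 called 222 rises and 93 falls, and 238 rises and 106 falls.

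The 6 rises and 6 falls of spliced reads with the smallest adjusted p, again chosen after the values were seen, include PARPBP, given earlier. Intron 2 of NNMT, a nicotinamide methyltransferase, had 3931 and 4374 spliced reads under H3B-8800 against 2117 and 2402 under DMSO. Its intronic reads rose as well, 229 and 235 against 112 and 115, so its ratio changed by 0.15 (SE 0.22) and was not called. Intron 6 of NRP1, a semaphorin and VEGF co-receptor, had 380 and 381 spliced against 132 and 149, and intron 2 of STX3, a membrane fusion protein, had 342 and 318 against 111 and 95. Intron 1 of ZNF350, a zinc finger protein, had 174 and 174 against 25 and 22, and intron 1 of CCDC12 had 982 and 1022 against 549 and 514. The groups do not overlap in any of these rises. Intron 3 of CDC45, a part of the replicative helicase, fell to 110 and 104 from 644 and 677, a change of -2.30 (SE 0.12), and its ratio could not be tested for lack of intronic reads. Intron 3 of TRPC4AP fell to 61 and 72 from 328 and 369, and intron 2 of GOT1, an aspartate transaminase, to 127 and 129 from 405 and 426. No library had more than 4 intronic reads in any of these 3 introns. Intron 2 of BOP1, a ribosome assembly factor, fell to 162 and 187 from 654 and 600, and intron 7 of PSPC1, a paraspeckle protein, to 35 and 28 from 181 and 198. In intron 15 of MPRIP, which binds myosin phosphatase, spliced reads fell to 137 and 166 from 476 and 457, while intronic reads, 415 and 462 against 549 and 499, did not pass the intronic test. Annotated exons cover 5709 of its 10361 bp, same-strand ones included, so its intronic count is uncertain.

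The ends of the introns could be read only where an annotated transcript continues into them, so they describe a part of the members. The first 6 bases were read in 1109 long introns, of which 1099 began with GT, 8 with GC and 2 with AT. The last 50 were read in 662, of which 661 ended in AG. In SDHA intron 9 these 50 bases, at the end of chr5:240477-250991 on the plus strand, are shown because this intron was among the clearest rises, with the capitals marking the AG.
SDHA intron 9: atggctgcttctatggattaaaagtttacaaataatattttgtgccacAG
Branch point motifs were searched in those 50 bases on the transcribed strand. TNCTNAC was found in 53 of 662, or 8.01%, and the shorter CTNAC, which every TNCTNAC contains, in 156, or 23.6%. Among the rises 8 of 72 held TNCTNAC and 21 of 72 CTNAC, and among the falls 1 of 8 and 3 of 8. The pyrimidine share of bases 4 to 20 from the 3′ end was 75% ± 9.25 (SD, n = 72) in rises and 76.7% ± 10.1 (SD, n = 92) in introns that were not called. A motif here is a match of letters and not a mapped branch point.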

How the data were processed

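RNA-seq of the cytoplasmic fraction came from strand-specific polyA-selected libraries, per the labels' protocols. The submitters' processing notes name HISAT2 2.0.4 and 2 builds, hg38 and mm10. The counter, its annotation release and its strand setting are not given in the sources used here, so genes that overlap or lie antisense cannot be told apart. The authors' deposited files hold 2 counts and an RPKM per intron and have no header. The RPKM is the first count per kb and per 1000000 reads of a library total, and those totals were recovered from it. The first count was taken as intronic reads and the excess of the second over it as spliced reads, an inference from the values. In long introns 75.4% to 78.3% of the non-zero intronic counts were even numbers, so both mates of a pair may be counted and reads are not independent. Reads spanning more than 1 intron enter the count of each one.

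Of the 11584 long introns, 11564 have their splice junction in GENCODE 29, which also gave annotated exons and transcript sequences, and symbols came from the RefSeq gene table by accession. Introns averaging 10 or more reads were tested with edgeR 4.0.16 (R 4.3.3), quasi-likelihood, Benjamini-Hochberg threshold 0.05 over introns of all lengths. The ratio test had a term per library, one for read kind and its interaction with treatment. Intronic reads were scaled to library totals and spliced reads by TMM. SEs were approximated from the F statistic. DESeq2 1.42.0, other filters, other scaling, a replicate block and each library left out were the alternatives. Tests were tested on simulated counts. Sums per class were compared by exact permutation.

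Named introns had groups that do not overlap and the smallest adjusted p: 12 rises and 6 falls without an annotated exon, 4 and 4 with one, at most 3 per gene list, and the 3 with most intronic reads. An intron that this rule names is not reported here by name and is counted with its list. The members, lists and tests were chosen with earlier results of these data known. Features of whole introns that need a genome were not analysed here.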

Additional observations from a re-analysis of the deposited data

How the results depend on the processing

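The ratio calls of long introns, 494 rises and 122 falls, became 307 rises with a minimum mean of 20, 170 rises and 26 falls with no filter but a total above 0 (more introns tested), and 144 and 26 when only introns without an annotated exon entered. DESeq2 called 69 falls. Every one of the 616 calls that could be fitted kept its direction in each of these. Of 52 named introns, 24 calls were lost with no filter and 5 with DESeq2. Some were also lost with 1 library left out, which leaves 1 library in a group. Other named introns then fell below the filter, so their calls could be neither kept nor lost. The named introns of BMS1 and LOXL2 could not be tested without either H3B-8800 library. At a minimum mean of 20 only 36 of the 52 were tested, and these kept their calls. No named intron that could be fitted reversed. Leaving out 1 library gave 301 to 444 rises and 64 to 90 falls of the ratio, 0 to 652 rises and 0 to 199 falls of intronic reads, and 0 to 923 rises and 0 to 482 falls of spliced reads; the cause was not tested. DESeq2, chosen for this after seeing the data, gave 173 and 173 intronic rises and 68 and 82 falls without either H3B-8800 library, and 222 and 238 spliced rises and 93 and 106 falls. With all libraries DESeq2 called 413 intronic rises and 126 falls, and 619 spliced rises and 292 falls. Size factors of DESeq2 gave 179 intronic rises and 650 falls, TMM 173 and 656, and library totals 740 spliced rises and 988 falls. Introns without an annotated exon gave 192 and 61 intronic, and 487 and 260 spliced, calls in each direction.

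The log2 change of the class ratio, 0.45, was 0.54 without annotated exons, 0.43 in introns with a mean of at least 10, 0.54 without the most-read 1% and 0.72 as a median over introns. The difference to mid-length introns, -0.71, was -0.85, -0.82 and, as a median, -1.08. The difference to introns over 50000 bp, 0.36, was 0.31 at a mean of at least 10, 0.61 without the most-read 1% and 0.74 as a median.

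Replicates with the same number did not deviate together, with correlations of -0.0025, 0.020 and 0.0079 for intronic reads, spliced reads and their ratio, so the numbers do not pair the libraries. With a replicate block the ratio test gave 447 rises and 104 falls. Few reads limit most members, since 12.8% could be tested for the ratio.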
